A study of Mus musculus with 2 samples.

Results

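The histone genes of the mouse were described in total RNA from hippocampal tissue. Members were all genes whose symbol begins with Hist1h to Hist4h, H2af, H3f3 or H1f and that have at least 1 protein-coding transcript in the deposited tables. This rule uses names alone and gave 82 of 55536 mouse genes. Of these, 67 carry a Hist1h to Hist4h symbol and are called cluster genes below, and 15 carry an H2af, H3f3 or H1f symbol and are called variant genes. The tissue is labelled as a layer of the hippocampus, and the mice were 5xFAD/CAST, female and 8 to 10 months old. 5xFAD mice carry human transgenes with familial Alzheimer mutations under the neuronal Thy1 promoter, and CAST is a wild-derived inbred strain. There was 1 group of 2 libraries, replicates 1 and 2, and each used 300 ng of RNA to which ERCC spike-ins were added. Both carry the same donor record, so separate animals are not established and an SD here gives only how far these 2 samples lie apart. There was no control group, and no value below compares genotypes. Replicates 1 and 2 held about 27816800 and 32316700 expected counts.

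Core histones H2A, H2B, H3 and H4 form the protein spool of the nucleosome, and the linker histone H1 binds where DNA enters and leaves it. Most cluster genes are replication-dependent: their mRNAs accumulate in S phase, lack introns and end in a conserved stem-loop in place of a poly(A) tail, bound by the stem-loop binding protein Slbp. Variant genes are transcribed outside S phase, mostly as spliced and polyadenylated mRNAs, and in long-lived neurons variant proteins, H3.3 above all, replace the S-phase forms. Selection for poly(A) tails leaves mRNAs without a tail out, whereas total RNA libraries retain them.

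The stem-loop was searched in every annotated transcript of the members as an arm of 6 bases that begins with GG and ends with T with pyrimidines between, any loop of 4 bases, and the reverse complement of the arm. It lay after the stop codon in 46 of the 67 cluster genes and in 1 of the 15 variant genes, H2afx. Among genes with at least 38 annotated bases after a stop codon, the first 100 of those bases held it in 90.2% of 51 cluster genes and in 0.0289% of 20729 other genes. The 9 sequences found are shown because they separate the H4 genes from the other families. Each is given for 1 gene from GENCODE M21 transcripts on mm10, 5′ to 3′, as DNA, with the paired arms in capitals and the loop in lower case.
Hist1h1c: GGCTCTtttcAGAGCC
Hist1h3e: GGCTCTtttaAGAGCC
Hist2h2ac: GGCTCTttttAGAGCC
Hist1h3g: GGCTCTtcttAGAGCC
Hist1h4h: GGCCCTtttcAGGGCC
Hist1h4i: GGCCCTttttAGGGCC
Hist1h4a: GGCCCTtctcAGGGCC
Hist1h4b: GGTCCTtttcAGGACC
H2afx: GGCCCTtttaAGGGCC
These lie at chr13:23739512-23739527 for Hist1h1c, chr13:23561903-23561918 for Hist1h3e, chr3:96220418-96220433 for Hist2h2ac, chr13:23535889-23535904 for Hist1h3g, chr13:23531458-23531473 for Hist1h4h, chr13:22040966-22040981 for Hist1h4i, chr13:23760800-23760815 for Hist1h4a, chr13:23757366-23757381 for Hist1h4b and chr9:44335240-44335255 for H2afx. Hist1h1c, Hist1h3g, Hist1h4h, Hist1h4b and H2afx are on the plus strand and the others on the minus strand. All of these positions are in the 3′ untranslated part of the gene's last exon.

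The arm GGCTCT was found in 34 genes, which were 4 H1, 11 H2A, 10 H2B and 9 H3 cluster genes and no H4 gene. The first sequence alone stood in 26 of them. The arm GGCCCT was found in 10 H4 genes and in H2afx, and the arm GGTCCT in the H4 genes Hist1h4b and Hist1h4j. All 12 H4 genes with a stem-loop thus had a different arm from the other cluster families. The first base of the stem-loop lay at position 22 to 59 after the stop codon, with a median of 32. Of the 21 cluster genes without a match, 16 have fewer than 38 annotated bases after the stop codon, and 13 of these 16 are annotated as coding sequence alone. The other 5, Hist1h1a, Hist1h2bc, Hist1h2bq, Hist1h2br and Hist2h2be, have longer annotated ends in which these letters were not found. Of these, Hist1h2bc is annotated with 2 exons and Hist1h2bq and Hist1h2br with up to 3, and bases removed by splicing were not searched. In the RSEM layout 98.5% of the TPM of Hist1h2bq and 96.7% of that of Hist1h2br were on transcripts of 381 bases, which are coding sequence alone.

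A gene was called detected at a level of at least 1 TPM (reads per effective length, scaled to a common total) in both libraries. By this rule 68 of the 82 histone genes were detected, or 82.9%, against 27.7% of all mouse genes and 60.2% of 22015 nuclear protein-coding genes. The count was 58 of 67 cluster genes, or 86.6%, and 10 of 15 variant genes. Summed over members, histone levels were 1483 TPM in replicate 1 and 1612 TPM in replicate 2, which is 1548 ± 91.4 (SD, n = 2) and 0.346% ± 0.0130 of the TPM of nuclear protein-coding genes. Cluster genes held 67.2% ± 1.13 of histone TPM but 50.4% ± 1.20 of histone expected counts. The median annotated length was 528 bases for cluster genes and 1160 bases for variant genes. In bulk tissue, fewer cells of a type and less RNA per cell cannot be told apart, so these levels are averages over all cells present.

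H4 had the highest summed TPM of any family, in the gene table and in the table with the layout of kallisto, but not the most reads. The 13 H4 genes, all cluster genes, summed to 472 and 536 TPM in replicates 1 and 2. H2A summed to 349 and 382 TPM, H3 to 352 and 364, H2B to 190 and 207, and H1 to 120 and 124. By expected counts H3, with 6564 and 7393, and H2A, with 6170 and 7379, were above H4, with 4365 and 5630. H1 and H2A were each close to evenly divided between cluster and variant genes: cluster H1 summed to 60.9 ± 1.54 TPM beside 61.0 ± 1.35 for variant H1, and cluster H2A to 182 ± 14.4 TPM beside 183 ± 8.70 for variant H2A. H3 was divided unevenly, with 94.1 ± 5.81 TPM from 12 cluster genes and 264 ± 2.40 TPM from the 2 variant genes H3f3a and H3f3b. The level of these 2 genes was 2.81 ± 0.148 times that of all cluster H3 genes.

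**Figure D1:**
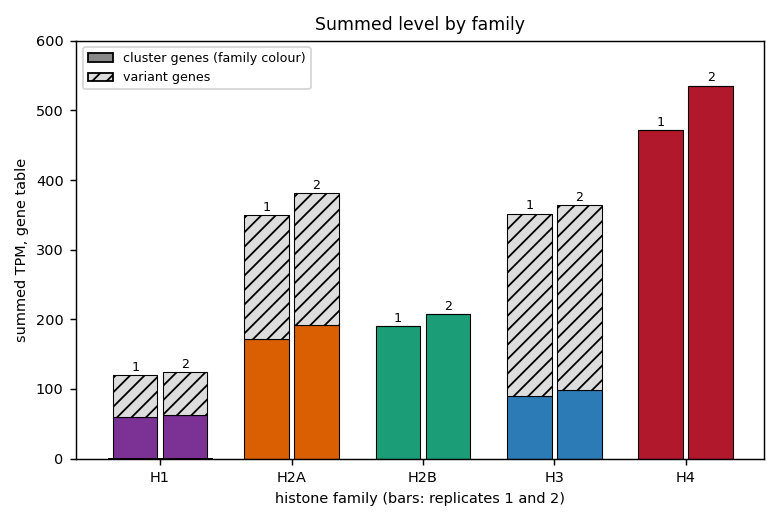
Summed TPM of the histone genes by family in replicates 1 and 2 (bars labelled 1 and 2), with cluster genes in the family colour and variant genes hatched on top of them. H4 reaches 472 and 536 TPM from cluster genes alone, whereas the H3 bars are mostly variant.

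Linker histones were led by the variant H1f0, the H1 subtype that accumulates in differentiated, non-dividing cells. H1f0 (chr15:79028450-79030504, plus strand) was at 38.7 TPM in each library, with 1487 and 1696 expected counts. H1fx, a distant H1 subtype encoded by a single-exon gene at chr6:87980421-87981637, was at 21.3 and 23.2 TPM. Among cluster genes, Hist1h1c was at 27.7 and 30.4 TPM and Hist1h1e at 22.9 and 20.1 TPM. The deposited intervals for H1fx and Hist1h1e overlapped in both libraries, at 18.8 to 22.5 and 20.6 to 23.7 TPM in replicate 1, so their order is not resolved. The other detected H1 genes were low, with means of 7.62 TPM for Hist1h1a, 1.39 for Hist1h1b and 1.10 for Hist1h1d. Hist1h1d holds 160 and 179 counts over an annotated length of 7425 bases, the longest of any cluster gene. The testis subtype Hist1h1t had 4 counts in each library, and the oocyte and spermatid subtypes H1foo and H1fnt had none.

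Among H2A genes the cluster gene Hist2h2aa2 and the variants H2afz and H2afy had the highest TPM. Hist2h2aa2 (chr3:96239749-96240276, minus strand) was at 89.7 and 96.3 TPM in the gene table and at 62.6 and 62.5 TPM in the kallisto layout, where H2afz was above it at 65.3 and 86.6 TPM. All of its 100-base windows occur in other genes. H2afz encodes H2A.Z, which marks the nucleosomes beside active promoters, and was at 57.9 and 64.4 TPM in the gene table. H2afv, which encodes the other H2A.Z form, was lower at 17.9 and 17.3 TPM, and the ratio of H2afz to H2afv was 3.48 ± 0.336. In the kallisto layout this ratio was 3.59 in replicate 1 and 6.11 in replicate 2, or 4.85 ± 1.78. H2afy, one of the genes for macroH2A, a variant with a large extra domain, was at 53.0 and 54.3 TPM. Its paralogue H2afy2 was at 6.35 and 6.67 TPM, and the ratio of H2afy to H2afy2 was 8.24 ± 0.146. H2afj was at 26.0 and 29.0 TPM. H2afx, whose protein is phosphorylated around DNA breaks, was at 15.98 and 17.74 TPM. In the gene table each of these 6 variants lay in a narrow range between the libraries, with the deposited intervals of replicate 1 and replicate 2 overlapping.

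The other detected H2A cluster genes spanned 1.26 to 22.0 TPM as means of both libraries. Hist3h2a was at 22.5 and 21.5 TPM, Hist2h2ac at 11.8 and 13.3 TPM, and Hist1h2ac at 1.36 and 1.17 TPM. Between them in mean TPM were Hist1h2ah, Hist1h2ap, Hist1h2ab, Hist1h2ai, Hist2h2aa1, Hist1h2ak, Hist1h2ag, Hist2h2ab, Hist1h2ad and Hist1h2ao. Most of these had fewer than 100 counts in each library. The 3 X-linked genes of the testis form H2A.B, H2afb1, H2afb2 and H2afb3, had no counts in either library.

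All 18 H2B genes are cluster genes, and 16 were detected. Hist2h2bb (chr3:96269752-96270132, plus strand) was highest at 45.8 and 46.7 TPM. Hist3h2ba was at 31.4 and 33.5 TPM, Hist1h2bc at 25.4 and 24.3 TPM, and Hist1h2bg at 20.8 and 25.2 TPM. All 4 were above the remaining H2B genes in both libraries. Those spanned means of 1.56 to 12.6 TPM, and their full order among themselves is not resolved. Some deposited intervals lay apart in both libraries, as for Hist1h2bl and Hist2h2be, at 5.11 to 12.2 and 2.62 to 3.58 TPM in replicate 1. The remaining genes were Hist1h2br, Hist1h2bq, Hist1h2bl, Hist1h2bf, Hist1h2bk, Hist1h2bb, Hist1h2be, Hist1h2bp, Hist1h2bj, Hist1h2bn, Hist2h2be and Hist1h2bm. Hist1h2bc is a gene for H2B whose spliced annotation continues well past the stop codon, with no stem-loop match in the spliced transcript. Its mean of 24.8 ± 0.813 TPM stood beside 23.0 ± 3.08 TPM for Hist1h2bg, which has a match.

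H3 levels came mostly from H3f3a and H3f3b, which encode the same protein, H3.3, the form placed into chromatin outside replication by the chaperones Hira and Daxx with Atrx. H3f3b (chr11:116021912-116027962, minus strand) had the highest TPM of the histone genes in the gene table, at 136 and 135, with 3403 and 3655 counts. H3f3a (chr1:180800832-180813943, minus strand) followed at 126 and 130 TPM, with 2221 and 2580 counts. Their deposited intervals overlapped in both libraries, at 126 to 137 and 116 to 129 TPM in replicate 1. The order of the pair depended on the table: H3f3b over H3f3a was 1.06 ± 0.0270 in the gene table and 0.696 ± 0.0525 in the table with the layout of kallisto. In that table Hist1h4k, H3f3a and Hist1h4h, at means of 174, 148 and 138 TPM, were all above H3f3b at 103 TPM. The highest cluster H3 genes were Hist1h3i at 16.4 TPM in each library and Hist1h3e at 14.8 and 16.8 TPM. Hist1h3h, Hist2h3b and Hist1h3a had means of 15.5, 14.3 and 12.3 TPM. Hist1h3f, Hist1h3b, Hist2h3c2, Hist1h3d and Hist1h3c were between 1.37 and 5.35 TPM.

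All 13 H4 genes were detected. Hist1h4k (chr13:21750194-21750505, minus strand) was at 94.4 and 111 TPM, Hist1h4h (chr13:23531050-23531519, plus strand) at 89.3 and 106 TPM, Hist1h4m at 80.6 and 79.3 TPM and Hist1h4d at 49.5 and 56.4 TPM. Hist1h4k was above Hist1h4h in each library, but their deposited intervals overlapped in both, at 75.3 to 105 and 77.7 to 95.2 TPM in replicate 1. Their SDs of 11.5 and 11.8 TPM reflect that both were higher in replicate 2 and do not measure the difference between these 2 genes. Below them were Hist1h4f, Hist1h4c, Hist1h4i, Hist1h4b, Hist1h4a and Hist2h4, with means of 47.2 to 10.5 TPM, and then Hist1h4n, Hist1h4j and Hist4h4 at 8.61, 5.85 and 3.94 TPM. By expected counts the order was different, since Hist1h4d, annotated over 1138 bases, had 1009 and 1313 counts and Hist1h4k, annotated as a coding sequence of 312 bases, had 393 and 526. The level of Hist1h4k thus rests on a short effective length, of 212 bases in the gene table and 97.1 bases in the kallisto layout in replicate 1. In that second table its TPM was 166 and 182.

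**Figure D2:**
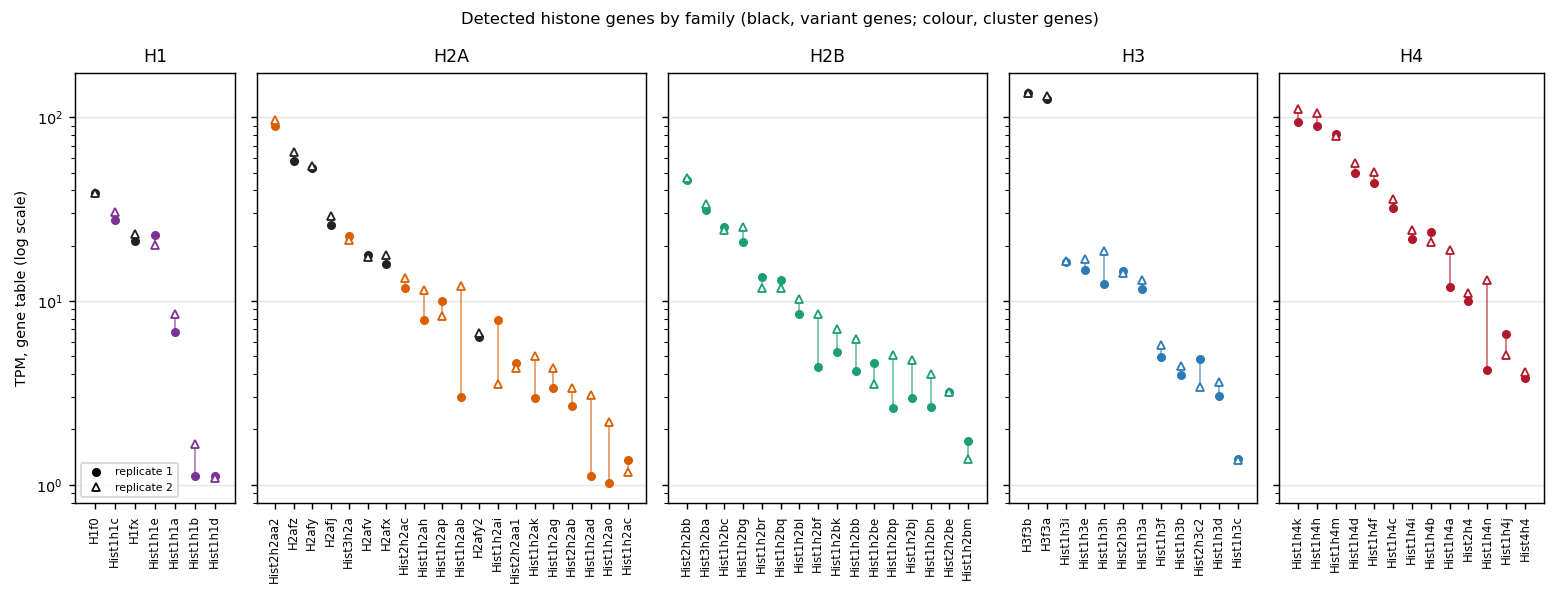
TPM of each of the 68 detected histone genes in replicate 1 (filled circles) and replicate 2 (open triangles) on a log axis, ordered within each family by mean level, with variant genes in black. H3f3b and H3f3a stand above 100 TPM in both libraries, and the widest gaps between libraries are at Hist1h2ab and Hist1h4n.

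The 14 genes that were not detected include the germline forms. Besides H1foo, H1fnt and the 3 H2A.B genes, the gene table assigned no count in either library to Hist1h2aa and Hist1h2ba, a divergent pair that encodes the testis forms of H2A and H2B, nor to Hist1h2an and Hist2h3c1. The kallisto layout gave Hist1h2aa 0 and 4 counts, the latter 0.861 TPM. With a count of 0, up to 3 counts per library are still allowed, which on the scale of CPM (counts relative to library depth) is 0.108 in replicate 1 and 0.0933 in replicate 2. This floor covers counting error only. It has less meaning for Hist1h2an and Hist2h3c1, since 83.3% and 100% of their 100-base windows occur in other genes to which reads could be assigned. Of 4 germ cell markers none reached 1 TPM in both libraries, and the spermatid genes Prm1 and Tnp1 were at 0. The other 2 had counts in replicates 1 and 2, with 35 and 77 for Dazl and 58 and 44 for Ddx4. Dazl was at 0.66 and 1.34 TPM and Ddx4 at 1.05 and 0.67 TPM. Hist1h1t, Hist1h2ae, Hist1h2af, Hist1h2bh and Hist1h3g had some counts but were under 1 TPM in at least 1 library.

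The cluster genes lie at 4 loci. The Hist1 locus on chromosome 13 spans positions 21715763 to 23934851 with 54 members, 46 of them detected, and gave 790 ± 71.8 TPM. Within it, 4 blocks of members are separated by gaps of over 100 kb, with 18, 5, 29 and 2 members and mean sums of 294, 46.6, 450 and 0 TPM. The last block is the testis pair. The Hist2 locus on chromosome 3 has 10 members, 9 of them detected, at 191 ± 6.17 TPM. The 2 genes of the Hist3 locus on chromosome 11 were at 54.5 ± 0.735 TPM together, and the single Hist4 gene on chromosome 6, Hist4h4, at 3.94 ± 0.205 TPM.

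Many H2A and H2B genes share a promoter region between divergent starts. There were 12 such H2A and H2B pairs, with 176 to 306 bases between the annotated starts and a median of 259.5 bases. Both genes of a pair had counts in 10 pairs, and the mean TPM of the H2B gene in the gene table was higher in 7 and that of the H2A gene in 3. Among the 7, Hist1h2ag at 3.36 and 4.31 TPM and Hist1h2bj at 2.95 and 4.75 TPM were near equal and changed order between libraries. Hist1h2ai and Hist1h2bl changed order in the kallisto layout, at means of 37.6 and 7.43 TPM. Several pairs hold a gene that shares most of its windows with another gene, up to 94.8% of those of Hist1h2bq with Hist1h2br. Hist1h2br is not the divergent partner of Hist1h2bq. The most unequal pairs were Hist1h2ac with Hist1h2bc, at 1.36 and 1.17 TPM beside 25.4 and 24.3 TPM, and Hist1h2ae with Hist1h2bg, at 0.78 and 1.66 TPM beside 20.8 and 25.2 TPM. The libraries gave the same order in both pairs. In Hist2h2ac with Hist2h2be the order was the other way, with the H2A gene at 11.8 and 13.3 TPM and the H2B gene at 3.19 TPM in each library. The first gene of that pair is annotated over 520 bases and the H2B gene over 2620 bases, and their counts were 97 and 126 beside 158 and 180. TPM and counts therefore rank this pair differently.

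Promoters of RefSeq genes on GRCm38.p6, from 250 bases before to 50 after the start, were matched for 76 members with 77 promoters. The CCAAT box (CCAAT), the TATA box (TATAAA) and the octamer (ATTTGCAT), bound by factors of the NF-Y, TBP and Oct families, were searched on both strands. None of the 3 contains another, but adjoining matches can share letters at their ends. CCAAT was in 83.1% of member promoters and in 37.4% of all 32851 promoters. TATAAA was in 46.8% against 13.6%, and the octamer in 19.5% against 1.74%. The families differed: CCAAT was in every matched promoter of cluster H1, H2A, H2B and H3 genes but in 3 of 12 of H4 genes, and the octamer was in 7 of 18 H2A and 7 of 17 H2B cluster promoters and in none of the cluster H1, H3 or H4 promoters. The variant H3f3b was the single variant gene with TATAAA and the single one with the octamer. The windows of divergent partners overlap, so their matches are in part the same letters. A match describes the letters in the window and is not a measured site.

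A pair of promoters that hold all 3 motifs is shown, with motifs on either strand in capitals. They are from 1 of the 2 most unequal divergent H2A and H2B pairs named above and from the histone gene with the highest TPM in the gene table. The window of Hist1h2bg is chr13:23571150-23571449 on the plus strand and reaches into its divergent partner Hist1h2ae. The window of H3f3b is chr11:116024455-116024754 on the minus strand.
Hist1h2bg: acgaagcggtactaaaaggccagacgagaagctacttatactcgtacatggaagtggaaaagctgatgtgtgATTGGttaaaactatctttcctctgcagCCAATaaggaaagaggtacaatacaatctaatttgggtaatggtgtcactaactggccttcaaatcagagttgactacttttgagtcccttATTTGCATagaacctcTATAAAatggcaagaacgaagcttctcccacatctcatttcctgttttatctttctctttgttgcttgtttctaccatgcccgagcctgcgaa
H3f3b: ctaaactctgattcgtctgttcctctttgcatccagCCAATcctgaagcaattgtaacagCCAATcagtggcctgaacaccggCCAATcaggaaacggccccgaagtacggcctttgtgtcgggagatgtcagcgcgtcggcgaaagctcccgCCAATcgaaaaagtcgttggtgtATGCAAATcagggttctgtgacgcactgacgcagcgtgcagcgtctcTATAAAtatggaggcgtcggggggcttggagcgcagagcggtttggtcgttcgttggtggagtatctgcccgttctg
In both windows the octamer lies upstream of the TATAAA match, and the CCAAT matches lie further upstream.

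The annotated ends of the stem-loop genes fall into 2 kinds. In 24 genes at least 1 transcript runs over 100 bases past the stem-loop, and 13 of these have AATAAA or ATTAAA in their last 50 bases. These genes held 313 and 342 TPM and 6810 and 8169 counts. In the other 23 genes the annotation ends within 100 bases of the stem-loop, 1 of them with such a signal, and these held 407 and 466 TPM but 2911 and 3813 counts. The gene table therefore gives more reads but a lower summed TPM to the genes with long annotated ends. Genes with a stem-loop held 49.3% of histone TPM. The tables do not resolve where along a gene the reads lay.

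The larger variant genes also have noncoding transcripts in the annotation, and part of their TPM was assigned there. Of the TPM of H3f3b, 42.0% ± 4.52 was on protein-coding transcripts and 58.0% ± 4.52 on 2 transcripts annotated as processed transcripts in the RSEM layout. The kallisto layout gave 51.3% ± 3.14 and 48.7% ± 3.14, so which class held more depended on the table. The coding transcript H3f3b-201 took 41.4% of the TPM in the first and 5.02% in the second, and H3f3b-202 0.612% and 46.3%. In H3f3a the protein-coding share was 98.6% ± 0.219. H2afy had 44.6% ± 2.29 on protein-coding transcripts, 30.8% ± 3.64 on processed transcripts and 24.6% ± 1.35 on retained introns. Its 2 protein-coding transcripts were H2afy-201 at 14.9 ± 1.73 TPM and H2afy-202 at 9.01 ± 2.55 TPM. H2afz had 95.9% ± 0.656 on protein-coding transcripts in the transcript table of the RSEM layout and 76.2% ± 13.3 in the kallisto layout. For H2afj the shorter transcript, H2afj-202, took 58.8% ± 4.85 of the TPM in the first and 30.9% ± 0.408 in the second. Summed to genes, the counts of the 10 detected variant genes differed between the tables by a median absolute value of 0.04 on the log2 scale, after centring.

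Members that share much of their sequence with other genes tended to have less certain counts. Of the 82 members 25 share at least 50% of their 100-base windows with another gene, and 16 share none. The coding sequences of Hist2h2aa1 and Hist2h2aa2, Hist1h2bq and Hist1h2br, Hist1h4m and Hist1h4n, and Hist1h2ao and Hist1h2ap are identical within each pair. The authors deposited a posterior SD for each count, which gives the spread of the count over the possible assignments of shared reads. Over the 70 members whose mean count reached 10, it exceeded 25% of the count in either library in 15, or 21.4%, against 2.04% of 18897 genes at that count. All 15 are cluster genes, and 9 are H2A, 4 H2B, 1 H3 and 1 H4. None of 11 members without shared windows was among them, 2 of 37 with up to 50% were, and 13 of 22 with at least 50% were. The median of the mean count also fell over these 3 classes, from 383 to 170 and 62.4, and the part of low counts was not tested. Spearman's rho between the shared share and the posterior SD was 0.842 over these 70 genes, given as a description because both come from the same sequences.

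The largest posterior SDs belonged to Hist1h2ao, at 237% and 137% of 7.58 and 18.6 counts, and Hist1h4n, at 130% and 45.0% of 27.2 and 96.2 counts. Hist2h2aa1 followed at 63.5% and 72.8%, Hist1h2ai at 42.3% and 63.6%, and Hist1h2bq at 58.1% and 53.7%. No level of these 5 genes can be read apart from that of its copies. Shared sequence did not always come with a posterior SD that was a large share of the count. All windows of Hist2h2aa2 occur elsewhere, and its posterior SD was 3.86% and 3.88% of its count. In counts this SD was 29.1 and 35.9, close to the 27.9 and 34.4 of its copy Hist2h2aa1, which has a far lower count.

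**Figure D3:**
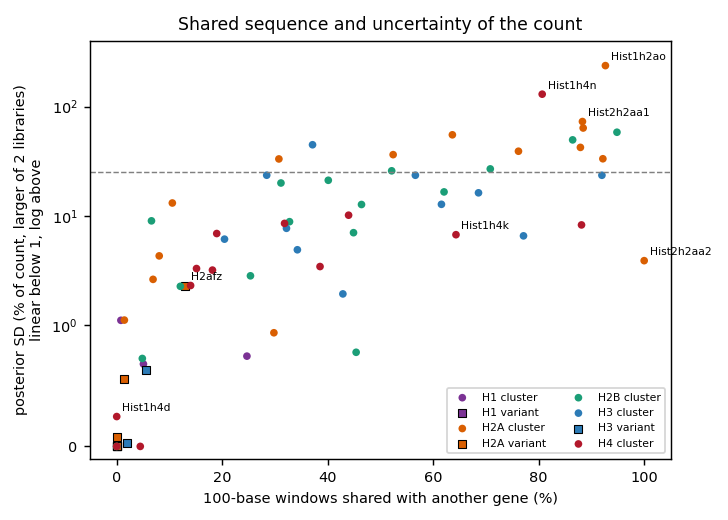
Share of each member's 100-base windows that occur in another gene against its posterior SD as a percentage of the count (larger of both libraries; linear below 1 and log above), for the 70 histone genes whose mean count reached 10. The dashed line marks 25%, and 13 of the 15 genes above it share at least 50% of their windows.

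The second deposited quantification, in the layout of kallisto, was set against the gene table as the log2 ratio of counts, centred on the median of nuclear protein-coding genes. The tables were at least 2-fold apart for 19 of 70 histone genes, or 27.1%, against 5.38% of all genes. All 19 are cluster genes, and 15 of 70, or 21.4%, were 2-fold lower in the kallisto layout, against 2.74% of all genes. Furthest apart were Hist1h2ao at -3.88 with 0 counts in both libraries in the kallisto layout, Hist1h2ah at -3.48, Hist2h2aa1 at 2.83, Hist1h2ag at -2.25 and Hist1h2ai at 2.14. Hist1h2ah had 47.2 and 78.9 counts in the gene table and 0 and 39.2 in the other, and Hist1h2ag 25.4 and 37.2 against 11.3 and 3.69. Hist2h2aa1 had 43.9 and 47.2 counts in the gene table and 324 and 435 in the other. Its copy Hist2h2aa2 moved the other way, from 754 and 924 to 479 and 542 counts. Hist1h2ai had 45.5 and 23.3 counts in the gene table and 154 and 183 in the other.

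Sums over copies were closer than single genes in some groups and not in others. Hist2h2aa1, Hist2h2aa2, Hist2h3c1 and the overlapping noncoding gene Gm20634 together had 1081 and 1313 counts in the gene table and 1135 and 1354 in the kallisto layout, a centred log2 difference of -0.13. The pair Hist1h4m and Hist1h4n was at -0.50, whereas Hist1h2bq with Hist1h2br was at -1.12 and Hist1h2ao with Hist1h2ap at -1.09. By family, the uncentred ratio of kallisto-layout to gene-table counts was 0.778 ± 0.0262 for H4, 0.923 ± 0.00531 for H2B, 0.974 ± 0.0234 for cluster H3, 1.01 ± 0.0202 for cluster H2A and 0.988 ± 0.0130 for cluster H1. It was 1.13 ± 0.00281 for all variant genes. H4 counts were thus lower against the other table than those of any other family, and Hist1h4i, with 269 and 341 counts against 105 and 102, showed this though 15.1% of its windows are shared.

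**Figure D4:**
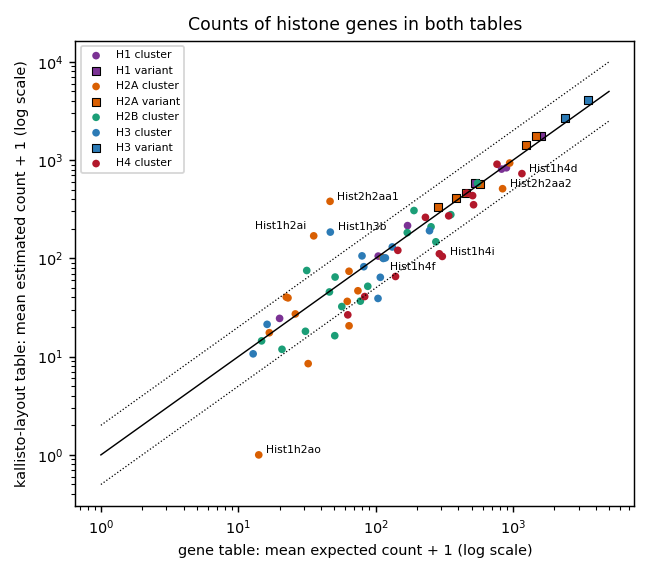
Mean expected count in the gene table against mean estimated count in the kallisto-layout table for 70 histone genes, 1 added to each, on log axes, with the line of equality and dotted lines at a 2-fold difference before centring. Variant genes (squares) lie along the line, while Hist2h2aa1 and Hist1h2ai lie above it and Hist1h2ao, Hist1h4i and Hist1h4f below.

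Between the libraries most histone genes differed little, and cluster genes tended to be slightly higher in replicate 2. The log2 ratio of replicate 2 over replicate 1, scaled with TMM, had a median of 0.14 over 70 histone genes, 0.16 over 60 cluster genes and 0.03 over 10 variant genes, against 0.01 over all genes. It was above 0 for 47 of 70 histone genes, or 67.1%, against 52.8% of all genes. The absolute ratio had a median of 0.19 over histone genes, against 0.12 over all genes and 0.17 over genes with a mean count of 10 to 1000. With kallisto-layout counts the medians were smaller, at 0.08 over histone genes and 0.10 over cluster genes. Replicate 2 also had higher levels of all 5 neuron and all 5 hippocampal subfield markers, with median log2 ratios of 0.13 and 0.11. It had lower levels of all 4 astrocyte markers, at -0.08, all 4 oligodendrocyte markers, at -0.30, all 3 red blood cell markers, at -0.52, and all 5 choroid plexus markers, at -0.83. The other lists were mixed in direction. Microglia markers had a median of -0.12, with 1 of 4 higher in replicate 2. Oligodendrocyte precursor markers were at -0.02, with 1 of 3 higher, and endothelium markers at 0.08, with 2 of 3 higher. The choroid plexus list summed to 445 TPM in replicate 1 and 156 TPM in replicate 2, the neuron list to 1855 and 2061 TPM, the oligodendrocyte list to 1725 and 1384 TPM, and the red blood cell list to 201 and 139 TPM. The subfield and astrocyte lists summed to 212 and 235 TPM and to 2541 and 2505 TPM. The part of these cell types in the histone ratios was not tested.

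At least 2-fold apart between libraries were 5 of 70 histone genes, or 7.14%, against 2.64% of all genes. All 5 are cluster genes, 8.33% of the 60. Hist1h2ab was at 21.9 and 100 counts, a log2 ratio of 1.91, Hist1h4n at 27.2 and 96.2 counts, 1.57, and Hist1h2ad at 10.3 and 32.4 counts, 1.33. Lower in replicate 2 were Hist1h3g at 18.1 and 5.53 counts, -1.48, and Hist1h2ai at 45.5 and 23.3 counts, -1.12. All 5 had fewer than 101 counts in each library, and all 5 were among the 15 genes with a posterior SD above 25% in at least 1 library. For Hist1h2ab the deposited TPM intervals of the libraries did not overlap, at 0.973 to 5.61 and 7.43 to 15.4, whereas for Hist1h4n they did, at 0.526 to 19.6 and 4.39 to 26.4.

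**Figure D5:**
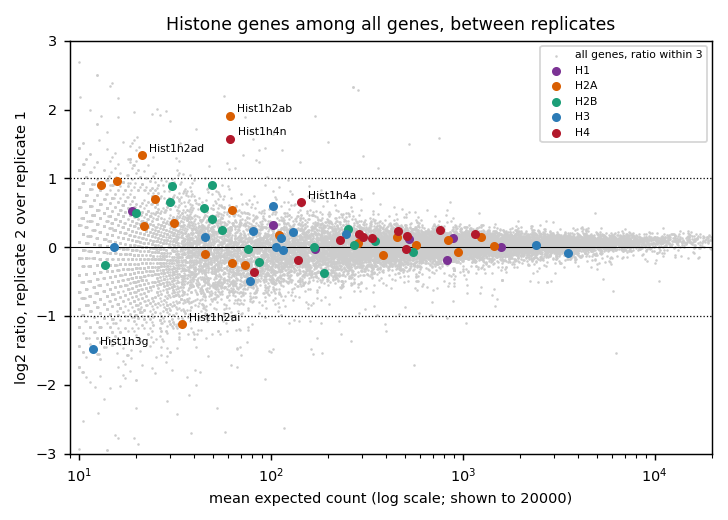
Log2 ratio of replicate 2 over replicate 1 against mean expected count (log axis) for histone genes, coloured by family, over all genes whose mean count reached 10 in grey; points beyond a ratio of 3 or a count of 20000 are not drawn. Histone genes with over 100 counts lie between the dotted 2-fold lines, and the 5 outside them have low counts.

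Genes that act on histones and their mRNAs were present at varied levels. Of 22 histone chaperones and exchange factors 20 were detected, with a median of 23.2 ± 0.152 TPM. The highest were Npm1 at 94.2, Atrx at 73.6 and Nap1l1 at 67.6 TPM. Hira and Daxx, which serve H3.3, were at 34.3 and 11.8 TPM, and Srcap and Anp32e, which place and remove H2A.Z, at 52.4 and 42.2 TPM. Among chaperones tied to replication, Chaf1a was detected at 2.19 and 1.11 TPM, whereas its partner Chaf1b, at a mean of 0.565 TPM, and Asf1b, at 0.385 TPM, were not. Of 14 genes of histone mRNA 3′ processing and decay 13 were detected, with a median of 10.0 ± 0.788 TPM. Slbp, which binds the stem-loop, was at 9.07 TPM, Lsm10 and Lsm11 of the U7 particle at 6.85 and 10.1 TPM, Npat, the transcriptional activator of cluster genes, at 8.06 TPM, and the exonuclease Eri1 at 5.06 TPM. Only Zfp473 was undetected there, at 0.235 TPM.

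Of 20 genes of S phase and division 14 were detected, with a median of 2.31 ± 0.276 TPM, against 6.19 TPM as the median of the 67 cluster histone genes. This order holds for TPM, which is relative to length, and the medians of counts were not compared. Hist1h2bk, at a mean of 6.19 TPM, had 39.1 and 59.7 counts, whereas Mcm6, at 6.24 TPM, had 339 and 378. Pcna, which also serves DNA repair, was highest at 22.2 TPM, followed by Mcm7 at 7.98 and Mcm6 at 6.24 TPM. The proliferation genes Mki67 and Top2a were at 0.360 and 0.920 TPM, and Cdk1, Ccna2, Ccnb1 and Rrm2 were also undetected. Markers of neurons, hippocampal subfields, astrocytes, oligodendrocytes and microglia were all detected. None of 4 markers of dividing cells reached 1 TPM in both libraries, but all 4 had counts. In replicates 1 and 2 these were 65 and 79 for Mki67, 43 and 67 for Top2a, 25 and 28 for Ccna2 and 16 and 9 for Cdk1. The cluster gene Hist1h2bm passed 1 TPM with 14.5 and 13.1 counts. All 3 markers of oligodendrocyte precursors were also detected. Of 4 neurogenic lineage markers 3 were detected, Dcx at 5.58, Neurod1 at 8.81 and Sox11 at 4.43 TPM, but not Eomes. The source of cluster histone RNA among these cells was not tested.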

How the data were processed

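Total RNA libraries of 1 group with 2 replicates were analysed. Mouse genes took 27683000 and 32169900 of their expected counts. Per the file headers, the build was mm10 and the annotation GENCODE M21, and each library was quantified by itself. In the RSEM layout the authors deposited expected counts and TPM, and as scores a posterior SD of the count and bounds of a TPM interval. In the kallisto layout they deposited estimated counts, and TPM, for each transcript. These names refer to column layouts: which aligner and counting programs were used, and whether they used strand, is not given in the sources used here, so reads of the 28 members that overlap a gene on the other strand may be mixed, although the labels name a directional kit. No CAST genome was used.

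Members came from the symbol in the transcript table and were linked by gene identifier. Kallisto-layout values were summed to genes. For the ratio between replicates, expected counts were rounded to whole numbers, given TMM factors by edgeR 4.0.16 under R 4.3.3, and put on the log2 scale of CPM with a prior count of 2. For the ratio between the tables a pseudocount of 1 was added to both counts. No hypothesis test was run, since there is 1 group. Shared windows are 100-base stretches of the annotated transcripts. Reads carry no molecular identifiers, so a floor of 3 counts covers counting error only. Stem-loops, overlaps and coordinates come from GENCODE M21 and promoters from RefSeq on GRCm38.p6, matched by symbol or identifier. Tables and figures used Python 3.11.15, numpy 2.4.6, pandas 2.3.3, scipy 1.17.1 and matplotlib 3.10.9.

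Every member detected is named. Values in each library are given for the 4 highest genes of each family, all detected variants, and the 5 genes with the largest posterior SD, the 5 furthest apart between tables and the 5 furthest apart between replicates. Other members and pairs with values in each library were chosen after their values were seen, as were the promoters printed. The members, gene lists and settings were chosen with earlier results of these data known. Of symbols that fit the rule, 9 have no protein-coding transcript and were left out, among them the pseudogenes Hist1h2al, at 17.7 and 16.9 TPM, and H3f3c, at 5.18 and 12.6 TPM. DESeq2 1.42.0 size factors, library size and spike-in scaling, other filters, thresholds and prior counts, and each library left out were tried as alternatives.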

Additional observations from a re-analysis of the deposited data

How the results depend on the processing

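No paired analysis was possible because there is 1 group, so replicate numbers pair no samples. No summary value changed sign under the alternatives run, but between the tables the order of H3f3b and H3f3a, that of Hist2h2aa2 and H2afz, and the major transcripts of H3f3b and H2afj turned. So did the order of Hist1h2ai and Hist1h2bl. With kallisto-layout counts the median log2 ratio between replicates fell from 0.14 to 0.08 for histone genes and from 0.16 to 0.10 for cluster genes. Detection moved from 68 to between 69 and 70 histone genes, and from 58 to between 59 and 60 cluster genes, when 1 library was left out. These counts fell to 66 and 56 with kallisto-layout TPM, to 67 and 57 at 10 or more expected counts, and to 61 and 51 at 2 TPM or more. They rose to 71 and 61 at 0.5 TPM or more, and likewise with TPM over nuclear protein-coding genes. Summed histone TPM was 1483 to 1612 and the cluster share 66.4% to 68.0% in single libraries. Scaled to nuclear protein-coding genes alone, summed histone TPM was 3459, by construction of a smaller total. The cluster share was 49.3% when genes with a stem-loop replaced the symbols and 50.4% by expected counts, which ignore length. With a mean count of at least 50 in place of 10, so with fewer genes, 2 were 2-fold apart between replicates, 6 had uncertain counts and 11 were 2-fold apart between tables. Uncertain counts numbered 26 at a posterior SD above 10% and 6 above 50%, and 29 genes were 1.5-fold and 9 were 3-fold apart between tables. At this depth the genes under 100 counts, and copies that share reads, cannot be ranked one by one.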

Other observations

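Hist1h2al, a symbol that fits the naming rule but is annotated as a processed pseudogene on chromosome 13, had 82.9 and 90.8 expected counts in the gene table, with a posterior SD of 3.20 and 3.60 counts. Most H2A cluster genes of the Hist1 locus had fewer counts. The kallisto-layout table gave it 0 counts in both libraries. H3f3c, a processed pseudogene related to H3f3a, had 31.7 and 87.5 counts in the gene table and 0 in the kallisto layout. Gm8203, a processed pseudogene that shares sequence with H2afz, had 183 and 290 counts in the gene table and 100 and 131 in the kallisto layout, beside 1095 and 1385 counts of H2afz in the gene table. The assignment of reads between these pseudogenes and the histone genes was not tested.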
